A study of Mus musculus with 12 samples.

Results

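Ctla2a, Ctla2b, Thbs1, Apoc2, Ggta1, Dmpk and the long non-coding RNA Gm56663 are 7 of the 56748 genes counted in M2-like bone marrow-derived macrophages (BMDM). They were chosen by their counts in these same libraries, because their levels differed between macrophages kept with and without supernatant of cultured melanoma cells. The rule named these genes and gave no threshold. In the order of all 15033 genes tested by the comparison of the 6 libraries with supernatant against the 6 without, Apoc2 stood at place 5, Ggta1 at 8, Thbs1 at 10, Ctla2a at 18, Dmpk at 52 and Ctla2b at 167. Gm56663 stood at place 7, and Ms4a4a, which lies beside it, at place 1. The effect of supernatant on the 7 genes is therefore a description of the values that chose them and is given with no test. The effect of IFNβ, averaged over both supernatant states, did not enter the choice and was tested.

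The macrophages were grown from the bone marrow of C57BL/6J mice in M-CSF at 20 ng/mL and received IL-4 at 10 ng/mL for 48 hours before treatment. Every group, the untreated control included, therefore consisted of IL-4-polarized cells, here called M2-like BMDM. Each group then spent 72 hours in its medium and gave 3 libraries, which the labels describe as biological replicates from 3 mice per condition. The untreated control received unsupplemented medium. The eGFP supernatant group received medium with supernatant of YUMM5.2 eGFP cells, a mouse melanoma line with a lentiviral Dox-dependent promoter in front of eGFP alone, which had been kept for 72 hours with Dox at 1 µg/mL. The Ifnb1eGFP supernatant group received supernatant of YUMM5.2 cells in which the same promoter drove Ifnb1 and eGFP, treated with Dox in the same way. It was diluted until IFNβ stood at 1500 pg/mL, and the supernatant of the eGFP cells by that same ratio. The rIFNβ group received recombinant IFNβ in fresh medium at the concentration matched to the Ifnb1eGFP supernatant and no supernatant. Products of the tumor cells, spent medium and carried-over Dox came together in both supernatant groups and cannot be told apart. The eGFP and Ifnb1eGFP supernatants came from differently transduced cells, and the Ifnb1eGFP cells were themselves kept in the IFNβ they released. Other differences between these supernatants cannot be told apart from an effect of IFNβ on the macrophages.

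IFNβ is a type I interferon. It binds the receptor IFNAR, and JAK kinases then phosphorylate STAT proteins, which enter the nucleus and turn on interferon-stimulated genes. Melanoma cells release cytokines, growth factors, metabolites and matrix proteins into their medium, and macrophages sense many of these through other receptors. The 7 genes have no pathway in common. Ctla2a and Ctla2b encode small proteins that resemble the propeptide of cathepsins and inhibit cathepsin L-like cysteine proteases. Thbs1 encodes thrombospondin-1, a secreted matrix glycoprotein that binds CD47, CD36 and integrins and can activate latent TGFβ. Apoc2 encodes apolipoprotein C-II, the cofactor that lipoprotein lipase needs to break down triglycerides. Ggta1 encodes the α1,3-galactosyltransferase that builds the α-Gal sugar epitope on glycoproteins and glycolipids. Dmpk encodes a serine/threonine kinase best known from muscle, where a repeat expansion in the human gene causes myotonic dystrophy type I. No function was assigned to Gm56663 here.

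Libraries held 31526034 to 45348457 counts, and the median per group ranged from 34493183 in the untreated control to 41015507 with Ifnb1eGFP supernatant. Macrophage genes were abundant in every group. In the untreated control Adgre1, which encodes F4/80, had 1562 ± 41.6 CPM and Csf1r, the M-CSF receptor, 1045 ± 28.1 CPM (mean ± SD, n = 3), where CPM are counts per 1000000 of the library's normalized total. Of 10 melanocyte and melanoma genes, 6 had at most 3 counts in every library, among them Tyrp1, Slc45a2 and Gpr143 at 0, and nearly all of the summed level of that list was Mitf, which macrophages also express. As these are bulk samples, a change in the share of cells that express a gene and a change in RNA per cell cannot be told apart.

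All 7 genes passed the filter on low counts. Per kilobase of exon, the untreated control had the highest levels for Thbs1 (19.6 CPM per kb) and Ggta1 (18.6), followed by Ctla2b (11.7), Gm56663 (3.34), Apoc2 (1.65), Ctla2a (1.27) and Dmpk (1.01). The counts behind the lowest values were small: Ctla2a had 45 to 150 counts per library without supernatant, Gm56663 52 to 70 and Apoc2 77 to 121 in the untreated control. By mean level the genes showed 4 different orders of the groups. Thbs1 and Gm56663 climbed from untreated control through eGFP supernatant and rIFNβ to Ifnb1eGFP supernatant with no overlap between neighbouring groups, and Ctla2b followed the same order of means with an overlap at its top. Apoc2 and Ggta1 were also lowest in the control and highest with Ifnb1eGFP supernatant, while their eGFP supernatant and rIFNβ libraries overlapped.

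**Figure D1:**
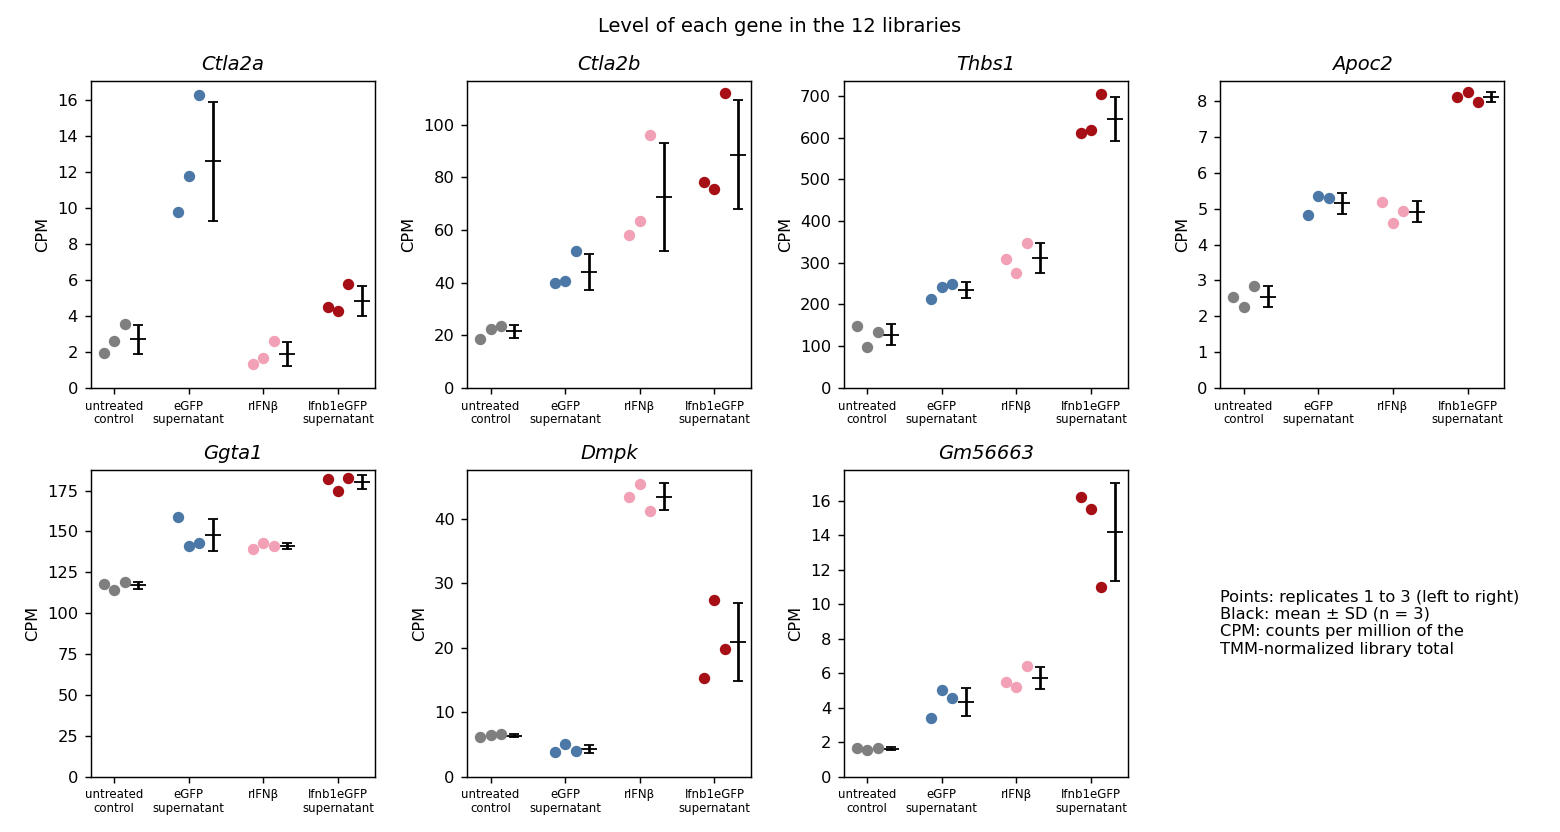
Level of each of the 7 genes in CPM (vertical axes, linear and starting at 0) in the 12 libraries. Points are libraries, and the black bar beside each group is its mean and SD (n = 3). Ctla2a peaks with eGFP supernatant, Dmpk with rIFNβ, and the other 5 genes have their highest mean with Ifnb1eGFP supernatant.

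The protease inhibitor genes Ctla2a and Ctla2b lie on the minus strand of chromosome 13 (GRCm39), Ctla2b at chr13:61043162-61045351 and Ctla2a at chr13:61081967-61084449. Their upstream sequences are shown because the genes rose together with eGFP supernatant and the reads assigned to them parted with IFNβ. The sum of Ctla2a with the overlapping gene Gm49391 rose with IFNβ, as given below. Below are the 250 bases before the annotated start of each, from the RefSeq promoter table, which uses the older build GRCm38.p6 (Ctla2a chr13:60936626-60936875 and Ctla2b chr13:60897448-60897697, both minus strand, written 5′ to 3′). Capitals mark matches to the AP-1-like motif TGANTCA and the GAS-like motif TTCNNNGAA.
Ctla2a: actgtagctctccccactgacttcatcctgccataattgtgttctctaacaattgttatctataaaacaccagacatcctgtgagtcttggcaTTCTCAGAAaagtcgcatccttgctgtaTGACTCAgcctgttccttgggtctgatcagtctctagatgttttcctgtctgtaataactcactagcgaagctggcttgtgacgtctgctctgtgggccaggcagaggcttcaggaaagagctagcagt
Ctla2b: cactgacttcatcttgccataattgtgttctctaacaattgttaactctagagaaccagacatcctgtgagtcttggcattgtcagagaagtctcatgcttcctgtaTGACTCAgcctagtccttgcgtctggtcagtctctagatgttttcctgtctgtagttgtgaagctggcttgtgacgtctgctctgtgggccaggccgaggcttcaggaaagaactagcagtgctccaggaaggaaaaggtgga
Over an alignment of 228 bases, 208 were identical (91.2%). Both windows held the AP-1-like letters TGACTCA, at position -129 from the start of Ctla2a and -143 from that of Ctla2b, and the GAS-like letters TTCTCAGAA were found in Ctla2a alone, at position -157. From a further annotated start of Ctla2a the same letters lay at -188 and -216. Searched on both strands in windows of 250 bases before to 50 after a start, the AP-1-like motif occurred in 7.81% and the GAS-like motif in 8.3% of all 32851 windows of the table. The other motifs searched were the ISRE-like (3.44% of windows), the STAT6-like (6.95%), the E-box CACGTG (7.15%) and the ETS core GAGGAA (28.3%), and neither gene's window held one. The windows of Apoc2, Ggta1 and Dmpk held none of the 6 motifs. A match describes letters and not a bound site, and Thbs1 and Gm56663 are named only.

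Ctla2a was highest with eGFP supernatant. It had 1.94, 2.60 and 3.55 CPM in the untreated control and 9.80, 11.8 and 16.3 CPM with eGFP supernatant. With rIFNβ it had 1.34, 1.66 and 2.63 CPM, and with Ifnb1eGFP supernatant 4.48, 4.25 and 5.78 CPM. The libraries with supernatant lay above their counterparts without it in both IFNβ states, and the rIFNβ and control libraries overlapped. The difference of eGFP supernatant from control was 2.21 ± 0.274 on the log2 scale (± SE), or 4.63-fold, and that of Ifnb1eGFP supernatant from rIFNβ 1.36 ± 0.287, or 2.57-fold. The reads assigned to Ctla2a fell with IFNβ, while their sum with those of the overlapping gene Gm49391 rose by 2.70 on the log2 scale. Averaged over both supernatant states the log2 fold change was -0.96 ± 0.198 (adjusted p = 0.00116, quasi-likelihood test of edgeR, Benjamini-Hochberg adjustment over all genes tested). Ifnb1eGFP against eGFP supernatant gave -1.38 ± 0.259 (adjusted p = 0.000807), with all 3 libraries lower. rIFNβ against control gave -0.53 ± 0.300 (adjusted p = 0.157), with overlapping libraries and a 95% interval of -1.19 to 0.13. Without rIFNβ replicate 3, the highest library of its group, this difference was -0.85 and passed (adjusted p = 0.0423, edgeR). It also passed with the replicate number as a block (-0.53 ± 0.128, adjusted p = 0.00559, edgeR).

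Ctla2b was the more abundant of the pair and was highest in the groups with IFNβ. It had 18.6, 22.4 and 23.6 CPM in the untreated control and 39.9, 40.6 and 52.2 CPM with eGFP supernatant. In the rIFNβ group it had 58.3, 63.4 and 96.0 CPM, and with Ifnb1eGFP supernatant 78.3, 75.5 and 112 CPM. The eGFP supernatant libraries lay above the control and below both IFNβ groups, and the rIFNβ and Ifnb1eGFP supernatant libraries overlapped. Supernatant without IFNβ was associated with a difference of 1.04 ± 0.212 (2.05-fold), and with IFNβ of 0.29 ± 0.202 (1.22-fold). IFNβ raised Ctla2b by 1.38 ± 0.148 on the log2 scale averaged over both states (adjusted p = 6.35e-06), by 1.75 ± 0.214 without supernatant (adjusted p = 2.91e-05) and by 1.00 ± 0.205 with it (adjusted p = 0.00148, edgeR in each case). In each of the 4 groups the library numbered 3 had the highest level of both Ctla2a and Ctla2b.

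The reads assigned to the pair thus moved the same way with supernatant and opposite ways with IFNβ. Ctla2a made up 11 ± 1.89% of the counts of Ctla2a and Ctla2b together in the untreated control and 22 ± 2.09% with eGFP supernatant. Its share was 2.49 ± 0.222% with rIFNβ and 5.21 ± 0.280% with Ifnb1eGFP supernatant. The 6 libraries without IFNβ had shares of 9.43% to 23.8%, and the 6 with IFNβ shares of 2.24% to 5.41%, a comparison chosen after the values were seen.

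These values depend on how reads were divided between overlapping genes. Gm49391 (chr13:61043164-61084385, GRCm39), annotated on the same strand from Ctla2b to Ctla2a, shares 1035 exon bases with Ctla2b (56.37% of its exons) and 343 with Ctla2a (16.18%). Gm49392 shares 390 exon bases with Ctla2b, and Gm49393 shares 44 with Ctla2a. Of all 75-base stretches in the transcripts, 56.52% of those of Ctla2b and 13.34% of those of Ctla2a also occurred in another gene, and the deposited values of both genes were not whole numbers in 12 of 12 libraries. Gm49391 itself had 2.88 ± 3.03 CPM in the control, 13.0 ± 6.80 with eGFP supernatant, 63.9 ± 6.99 with rIFNβ and 89.2 ± 7.90 with Ifnb1eGFP supernatant. Its log2 difference with IFNβ was 3.58 ± 0.359 (adjusted p = 3.5e-06, edgeR). When the counts of Ctla2a and Gm49391 were added up, the IFNβ difference of the sum was 2.70, so the fall of Ctla2a with IFNβ holds for the reads assigned to Ctla2a and not for the sum. The sum of Ctla2b and Gm49391 rose by 2.06 with IFNβ. The supernatant differences of these sums were 2.16 without and 0.52 with IFNβ for Ctla2a and Gm49391, and 1.22 and 0.38 for Ctla2b and Gm49391. The protein-coding neighbours Tpbpa and Tpbpb were at 0 in every library.

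**Figure D2:**
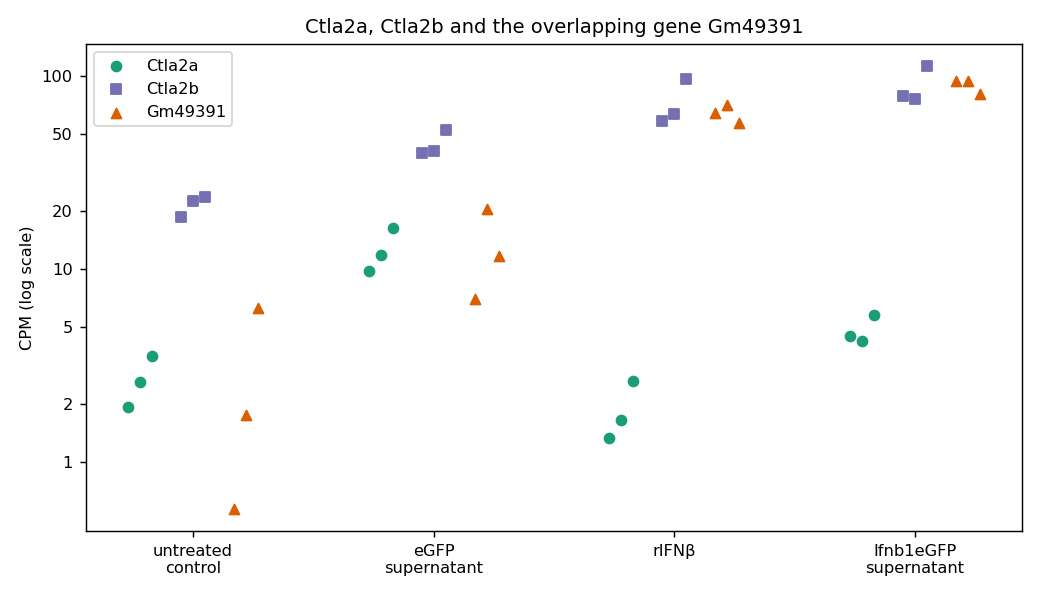
CPM (vertical axis, log scale) of Ctla2a, Ctla2b and the gene annotated across both, Gm49391, in the 4 groups. Each symbol is 1 library. The mean of Ctla2a is lower in both groups with IFNβ than in their counterparts without it, while Ctla2b and Gm49391 lie higher there.

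Thbs1 (chr2:117941974-117957616, plus strand, GRCm39), the matrix glycoprotein gene, rose in steps over the 4 groups. It had 148, 98.8 and 133 CPM in the untreated control and 213, 242 and 250 CPM with eGFP supernatant. With rIFNβ its values were 310, 276 and 347 CPM, and with Ifnb1eGFP supernatant 610, 619 and 705 CPM. No library of one group overlapped the next. The supernatant difference was 0.89 ± 0.136 without IFNβ (1.85-fold) and 1.05 ± 0.136 with it (2.07-fold). IFNβ raised Thbs1 by 1.3 ± 0.137 without supernatant (2.45-fold, adjusted p = 9.01e-06) and by 1.45 ± 0.137 with it (2.74-fold, adjusted p = 3.65e-06, both by edgeR). The opposite-strand genes Gm13986 and Gm29233, which overlap 511 and 208 of its exon bases, had at most 18 counts in any library. The neighbour Fsip1 was at 1.55 CPM in the control and 1.21 CPM with Ifnb1eGFP supernatant, with an IFNβ difference of -0.11 ± 0.129 (adjusted p = 0.472, edgeR).

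Platelets are rich in thrombospondin-1, so platelet and megakaryocyte genes were measured beside it. The summed level of 6 such genes was 172 to 199 CPM in the control, 269 to 311 with eGFP supernatant, 150 to 210 with rIFNβ and 142 to 246 with Ifnb1eGFP supernatant. Nearly all of it was Pf4, at 184 ± 13.3, 288 ± 21.4, 185 ± 32.1 and 197 ± 53.6 CPM in that order of groups. Of the 6 genes 2, Gp9 among them, had at most 3 counts in every library, and apart from Pf4 the others were detected at low levels, with group means of at most 1.43 CPM for Gp1ba, 0.626 for Ppbp and 0.625 for Itga2b. The summed level was thus higher than in the control with eGFP supernatant, and it overlapped the control with rIFNβ and with Ifnb1eGFP supernatant, where Thbs1 was highest. Its part in the Thbs1 values was not tested.

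Apoc2 (chr7:19405504-19411877, minus strand, GRCm39), the lipase cofactor gene, had low but even levels. It had 2.54, 2.25 and 2.86 CPM in the control, 4.83, 5.36 and 5.30 CPM with eGFP supernatant, 5.19, 4.61 and 4.95 CPM with rIFNβ and 8.12, 8.27 and 7.99 CPM with Ifnb1eGFP supernatant. Supernatant alone and rIFNβ alone thus gave levels that overlapped, and both together a level above either. The supernatant difference was 1.01 ± 0.0982 without IFNβ (2.01-fold) and 0.73 ± 0.0915 with it (1.65-fold). IFNβ raised Apoc2 by 0.94 ± 0.0985 without supernatant (adjusted p = 8.32e-06) and by 0.65 ± 0.0910 with it (adjusted p = 8.47e-05, edgeR). Apoc2l, annotated over 646 of the exon bases of Apoc2 on the same strand, had 8 counts in 1 control library and 0 in the other 11, and the sum of both genes gave an IFNβ difference of 0.77, against 0.80 for Apoc2 alone. Of its neighbours, Apoc4 had at most 0.0789 CPM in the mean of any group and Clptm1 had group means of 179 to 202 CPM.

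Ggta1 (chr2:35290066-35354620, minus strand, GRCm39), the α-Gal transferase gene, showed small differences in all comparisons, with an SD of at most 9.74 CPM in any group. It had 118, 114 and 119 CPM in the control and 159, 141 and 143 CPM with eGFP supernatant. rIFNβ libraries had 139, 143 and 141 CPM, and with Ifnb1eGFP supernatant 182, 175 and 183 CPM. The order of groups was that of Apoc2. The supernatant difference was 0.34 ± 0.0477 without IFNβ (1.26-fold) and 0.35 ± 0.0476 with it (1.28-fold). IFNβ raised Ggta1 by 0.27 ± 0.0478 without supernatant (1.21-fold, adjusted p = 0.000484) and by 0.29 ± 0.0476 with it (1.22-fold, adjusted p = 0.000319, edgeR). All of its values were whole counts, and no 75-base stretch was shared with another gene. The protein-coding gene Dab2ip, which lies 93658 bases away, fell with IFNβ by 1.42 on the log2 scale (adjusted p = 8.74e-07, edgeR).

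Dmpk (chr7:18817406-18827746, plus strand, GRCm39), the kinase gene, was the only one of the 7 that was lower with supernatant. It had 6.10, 6.41 and 6.53 CPM in the control and 3.76, 5.04 and 3.99 CPM with eGFP supernatant. The rIFNβ libraries held 43.4, 45.4 and 41.2 CPM, and with Ifnb1eGFP supernatant 15.3, 27.3 and 19.7 CPM. No groups overlapped, and the order was eGFP supernatant, control, Ifnb1eGFP supernatant and rIFNβ from low to high. The supernatant difference was -0.57 ± 0.194 without IFNβ, or 1.49-fold lower, and -1.06 ± 0.165 with it, or 2.09-fold lower. IFNβ raised Dmpk by 2.77 ± 0.182 without supernatant (6.82-fold, adjusted p = 1.69e-07) and by 2.28 ± 0.185 with it (4.87-fold, adjusted p = 1.08e-06, edgeR). Of the 7 genes it had the largest IFNβ difference and the only one past the thresholds of the study's methods, which ask for a log2 fold change of 2 or more in size together with an adjusted p no greater than 0.01. Genes that rose past these thresholds made up 2.98% of those tested for the averaged IFNβ effect. The gene on its lower-coordinate side, Dmwd, which ends 700 bases away, rose with IFNβ by 0.63 ± 0.127 (adjusted p = 0.000928), and Six5, which starts 439 bases away, had a difference of -0.01 ± 0.168 (adjusted p = 0.981, edgeR).

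Gm56663 (chr19:11370203-11370687, plus strand, GRCm39) is annotated as a long non-coding RNA of 485 exon bases. It had 1.68, 1.52 and 1.66 CPM in the control and 3.41, 5 and 4.57 CPM with eGFP supernatant. Under rIFNβ it reached 5.49, 5.19 and 6.42 CPM, and with Ifnb1eGFP supernatant 16.2, 15.5 and 11 CPM. No groups overlapped. The supernatant difference was 1.41 ± 0.192 without IFNβ (2.67-fold) and 1.32 ± 0.164 with it (2.50-fold). IFNβ raised Gm56663 by 1.81 ± 0.190 without supernatant (3.51-fold, adjusted p = 8.29e-06) and by 1.72 ± 0.167 with it (3.29-fold, adjusted p = 4.68e-06, edgeR).

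Gm56663 begins 49 bases past the end of Ms4a4a on the same strand. Ms4a4a, which encodes a membrane protein of the MS4A family, had 5.28, 5.94 and 6.36 CPM in the control and 16.9, 17.6 and 16.2 CPM with eGFP supernatant. With rIFNβ it had 24.9, 23.2 and 24.5 CPM, and with Ifnb1eGFP supernatant 61.8, 51.1 and 58.9 CPM. The order of the groups was thus that of Gm56663, again with no overlap. The ratio of Gm56663 to Ms4a4a counts stayed between 0.187 and 0.319 in all 12 libraries while the level of Gm56663 varied from 1.52 to 16.2 CPM. The log2 difference of Ms4a4a with supernatant averaged 1.38 ± 0.0592, beside 1.37 ± 0.126 for Gm56663, and that with IFNβ 1.90 ± 0.0596 (adjusted p = 1.76e-10, edgeR), beside 1.76 ± 0.126. Whether the reads of Gm56663 came from a longer Ms4a4a transcript was not tested. Ms4a4c, the next protein-coding gene, had 0.405 CPM in the control, 0.844 with eGFP supernatant, 503 with rIFNβ and 528 with Ifnb1eGFP supernatant. Its eGFP supernatant libraries had 0.429, 1.88 and 0.226 CPM, so that mean rests mostly on replicate 2.

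**Figure D3:**
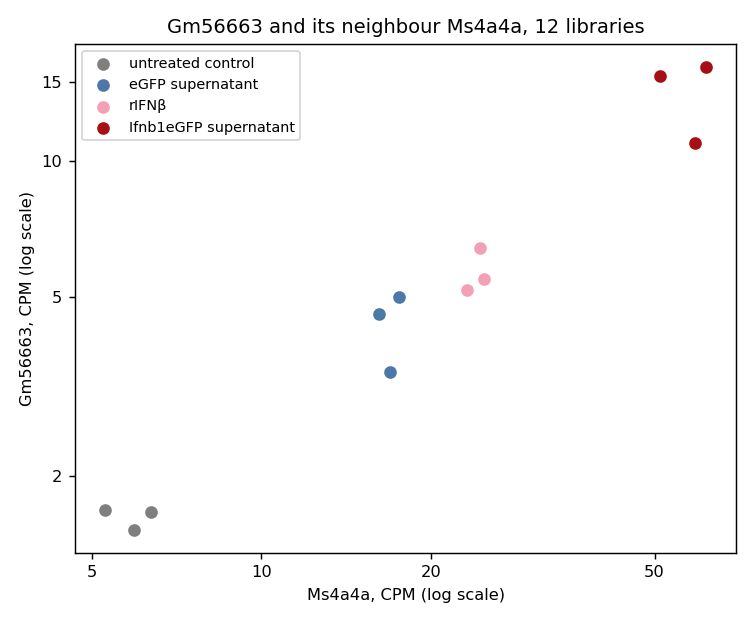
CPM of Gm56663 (vertical axis) against CPM of the adjacent gene Ms4a4a (horizontal axis), both on log scales, for the 12 libraries coloured by group. The libraries lie along 1 line from the control to the Ifnb1eGFP supernatant group, and the ratio of the counts stays between 0.187 and 0.319.

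With and without IFNβ, the supernatant differences of all 7 genes had the same sign, positive for 6 and negative for Dmpk. Without IFNβ the ranges of the eGFP supernatant and control libraries did not overlap for any of the 7. Of all genes tested, 15.5% had ranges that did not overlap in that comparison, and since it chose the members nothing is read from the count. With IFNβ the ranges of Ifnb1eGFP supernatant and rIFNβ did not overlap for 6 of the 7, with Ctla2b as the exception, beside 12.9% of all genes. This comparison is also part of the one that chose the members, and nothing is read from its count. The median of the averaged supernatant difference was 0.87 on the log2 scale over the members and 0 over all genes to 2 decimals. The point estimates were smaller with IFNβ for Ctla2a, Ctla2b, Apoc2 and Gm56663, larger for Thbs1 and Ggta1, and further below 0 for Dmpk.

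**Figure D4:**
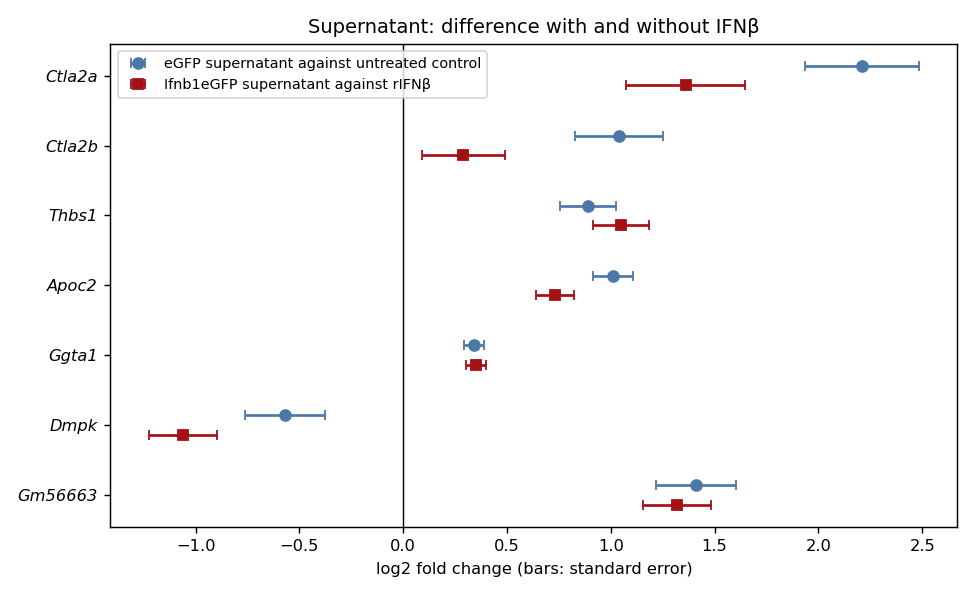
Log2 fold change with supernatant (horizontal axis, bars are SE) of each gene, without IFNβ (eGFP supernatant against untreated control) and with IFNβ (Ifnb1eGFP supernatant against rIFNβ). Dmpk alone lies below 0, and the estimates for Ctla2a and Ctla2b are farther apart than those for Thbs1, Ggta1 and Gm56663.

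The difference between the supernatant effects in the presence and absence of IFNβ was tested as an interaction. This test shares no information with the averaged supernatant effect but does with its parts, which limits its independence of the choice of genes. None of the 7 genes passed edgeR's test (adjusted p of 0.926 to 0.969), and none of all genes tested did (0% called). At an unadjusted threshold of 0.05, edgeR's test took in 1 of the 7, Ctla2b, beside 4.4% of all genes, and the fit with a replicate block called none of the 7 after adjustment. DESeq2 gave an adjusted p for 4 of the 7 and called none of them, and it gave none for Ctla2a, Apoc2 and Gm56663. Intervals of the difference, with minus without IFNβ, are from the fit without the block. The interval was -1.39 to -0.10 for Ctla2b, -1.72 to 0.02 for Ctla2a, -1.05 to 0.07 for Dmpk and -0.58 to 0.01 for Apoc2. It was -0.64 to 0.45 for Gm56663, -0.26 to 0.58 for Thbs1 and -0.13 to 0.16 for Ggta1. A change of the supernatant effect by a log2 unit was thus inside the interval for Ctla2a, Ctla2b and Dmpk and outside it for the other 4.

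All 7 genes were called for the averaged IFNβ effect, which includes the comparison of supernatants from different cells. Averaged over both supernatant states, 6 rose and the reads assigned to Ctla2a fell, though not their sum with Gm49391, at an adjusted p of at most 0.05, beside 66.2% of all genes tested that passed (36.1% higher and 30.1% lower). Ifnb1eGFP against eGFP supernatant also changed 7 of 7, beside 55.1% of all genes. rIFNβ against control changed 6 of 7, beside 55.3%, and Ctla2a was the one that did not pass. With the replicate number as a block, Ctla2a passed in this comparison too. As most genes of these macrophages moved with IFNβ, these counts do not set the members apart. The averaged log2 fold changes ran from -0.96 for the reads assigned to Ctla2a through 0.28 ± 0.0337 for Ggta1, 0.80 ± 0.0671 for Apoc2, 1.37 ± 0.0971 for Thbs1, 1.38 ± 0.148 for Ctla2b and 1.76 ± 0.126 for Gm56663 to 2.53 ± 0.130 for Dmpk. For Ggta1 the IFNβ difference of 0.28 lay beside a supernatant difference of 0.35, and for Apoc2 0.80 lay beside 0.87.

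**Figure D5:**
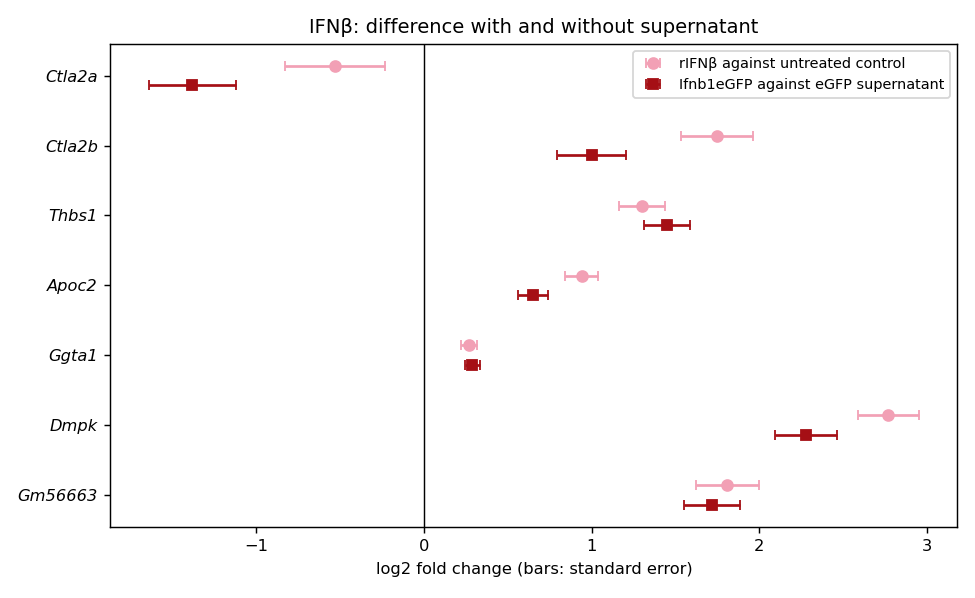
Log2 fold change with IFNβ (horizontal axis, bars are SE) of each gene, without supernatant (rIFNβ against untreated control) and with it (Ifnb1eGFP against eGFP supernatant). Ctla2a lies below 0 in both states, Ggta1 nearest to 0, and Dmpk farthest above 0 at 2.77 and 2.28.

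Genes related to the members were described from 7 lists with 113 entries, 98 of them tested. With supernatant, averaged over both IFNβ states, 6 of the 98 changed (6.12%), beside 0.905% of all genes tested. Ctsl, Ctsc, Ctsh, Itga6 and B4galt1 rose and Id3 fell. This count depended on single libraries. It was 8 without Ifnb1eGFP supernatant replicate 2 and 1 to 3 without any one of the others. With IFNβ 79 of the 98 changed (80.6%), 44 higher and 35 lower, beside 66.2% of all genes tested. Counts of single lists with IFNβ below are to be read beside the shares of all genes that rose, 36.1%, and fell, 30.1%. The lists were written with earlier results of these data known.

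Cathepsins are the lysosomal cysteine proteases that proteins of the Ctla2 type inhibit. Of 10 listed, 9 were tested, and 3 rose with supernatant. Ctsl, encoding cathepsin L, had 4258 ± 74.5 CPM in the control, 5941 ± 95.2 with eGFP supernatant, 5712 ± 379 with rIFNβ and 8301 ± 630 with Ifnb1eGFP supernatant. Its averaged supernatant difference was 0.51 ± 0.0421 (adjusted p = 0.000246) and its IFNβ difference 0.45 ± 0.0421 (adjusted p = 1.77e-06, edgeR). Ctsc, encoding dipeptidyl peptidase 1, and Ctsh rose less with supernatant, by 0.27 ± 0.0488 and 0.21 ± 0.0402, and more with IFNβ, by 2.47 and 1.40. With IFNβ 5 of the 9 rose and 3 fell. Of 8 cystatins and stefins, which inhibit the same class of proteases, 4 were tested, none changed with supernatant and 3 fell with IFNβ (Cstb, Cst7 and Cst6).

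Among 14 thrombospondins and their receptors, all tested, Itga6 rose with supernatant by 0.21 ± 0.0332 (adjusted p = 0.0141, edgeR), while Itgb1 had a difference of 0.11 ± 0.0281 that did not pass (adjusted p = 0.146). With IFNβ 5 rose, Cd47 among them, and 8 fell, Cd36 among them. Itgb3, the integrin β3 chain, fell by 2.62 and the chaperone gene Calr by 1.00 on the log2 scale. Of 25 genes of the TGFβ pathway, 24 were tested. Id3, a transcriptional regulator among the targets of BMP and TGFβ signalling, fell with supernatant by 1.18 (adjusted p = 0.0449, edgeR), with 10.3 ± 3.41 CPM with rIFNβ and 3.77 ± 0.936 with Ifnb1eGFP supernatant, and 1.73 ± 0.514 CPM in the control and 0.917 ± 0.361 with eGFP supernatant. Like Dmpk it was higher with IFNβ (2.31 ± 0.230, adjusted p = 3.29e-06). Skil, a repressor of SMAD signalling, had a supernatant difference of 0.34 ± 0.0866 that did not pass (adjusted p = 0.12). With IFNβ 12 of the 24 rose, Smad3 by 0.90 ± 0.0432, and 8 fell, Bambi by 1.39.

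Of 22 genes of apolipoproteins and lipid handling, 16 were tested and none changed with supernatant. The supernatant differences nearest to passing were those of Mylip, a ubiquitin ligase gene, at 0.43 ± 0.101 (adjusted p = 0.1) and of Lpcat3 at 0.10 ± 0.0381 (adjusted p = 0.362, edgeR). With IFNβ 8 rose and 5 fell. Angptl4, a lipoprotein lipase inhibitor, rose by 1.88 ± 0.0750, and Lpl itself fell. Of 16 galactosyltransferases and galectins, 13 were tested. B4galt1, a β1,4-galactosyltransferase, rose with supernatant by 0.18 ± 0.0303 (adjusted p = 0.0229, edgeR) and with IFNβ by 0.50 ± 0.0303, and B3galnt1 had a supernatant difference of 0.15 ± 0.0664 that did not pass. With IFNβ 7 rose, Lgals9 by 2.27 ± 0.0949, and 3 fell, Lgals1 by 0.85. Of 18 relatives and partners of the Dmpk kinase, all tested, none changed with supernatant, and with IFNβ 7 rose and 5 fell. Celf2, an RNA-binding protein gene, rose with IFNβ by 0.48 ± 0.0315 and the kinase gene Cdc42bpa fell by 0.60, while the nearest to passing with supernatant were Dmwd at -0.36 ± 0.127 (adjusted p = 0.3) and Stk38 at 0.08 ± 0.0333 (adjusted p = 0.39).

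The genes whose log2 CPM followed each member most closely over the 12 libraries were found by Pearson's r, as a description over libraries that share 4 treatments. Ms4a4a was among the nearest for Thbs1 (r = 0.974), Apoc2 (r = 0.969) and Gm56663 (r = 0.982). Cxcr4, encoding the receptor of the chemokine CXCL12, was the nearest for Apoc2 (r = 0.983) and for Ggta1 (r = 0.979). It had 18.6 ± 1.33 CPM in the control, 33.4 ± 1.93 with eGFP supernatant, 32.7 ± 0.977 with rIFNβ and 58.5 ± 1.56 with Ifnb1eGFP supernatant. Ggta1 was also near Ctsl (r = 0.972), Thbs1 near Picalm (r = 0.972) and Gm56663 near Etv6 (r = 0.984). Dmpk was near the pseudogene Rps23-ps1 (r = 0.99). Pearson's r does not measure the size of a change. The averaged log2 difference with IFNβ was 0.15 for Etv6 beside 1.76 for Gm56663, and 0.32 for Rps23-ps1 beside 2.53 for Dmpk. For Cxcr4 it was 0.81, beside 0.80 for Apoc2. Ctla2b was nearest to Zfp1008 (r = 0.97) and Inpp4b (r = 0.967). Ctla2a had weaker neighbours, Tnfrsf23 (r = 0.932) and Scpep1 (r = 0.92), and among the members its r was 0.0982 with Ctla2b and -0.649 with Dmpk. Thbs1, Apoc2, Ggta1 and Gm56663 had r of 0.922 to 0.975 among themselves.

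Genes that mark other cells were mostly at low levels. Of 7 mast cell genes 4, of 7 T cell genes 5 and of 7 neutrophil genes 4 had at most 3 counts in every library. The summed level of 8 fibroblast genes ranged from 31.8 to 86.5 CPM over all libraries, and 0 of the 8 were that low. With IFNβ 2 of them rose, Pdgfra and Dcn, and 2 fell, Col1a1 and Col3a1, beside 36.1% and 30.1% of all genes tested. Dcn went from 9.92 CPM in the control to 25.3 with rIFNβ, and 0 of the 8 changed with supernatant. The part of fibroblasts in the values of the members was not tested. That of 6 endothelial genes was 204 to 219 CPM in the control, 173 to 182 with eGFP supernatant, 32 to 35.9 with rIFNβ and 28.7 to 32.2 with Ifnb1eGFP supernatant, nearly all of it Vwf in the control. The fall with IFNβ was that of Vwf, from 210 CPM in the control to 28.2 with rIFNβ. Of the 4 endothelial genes tested the other 3, Kdr, Pecam1 and Cdh5, rose with IFNβ, Kdr from 0.578 to 3.52 CPM, and 2 of the 6 had at most 3 counts in every library. The summed level of 10 macrophage genes was 15100 to 16300 CPM in the control and 19000 to 19600 with eGFP supernatant. Most of that difference was Lyz2, the lysozyme gene, at 9415 ± 527 and 12396 ± 385 CPM. With rIFNβ the sum was 10700 to 10800 CPM and with Ifnb1eGFP supernatant 11500 to 11600 CPM. The lower sums with IFNβ were mostly those of Lyz2, at 3472 ± 31.4 CPM with rIFNβ and 4111 ± 208 with Ifnb1eGFP supernatant. Of the 10 genes 3 fell with IFNβ and 5 rose, beside 30.1% and 36.1% of all genes tested. Among those that rose, Fcgr1 went from 52.6 CPM in the control to 1155 with rIFNβ. With supernatant, averaged over both IFNβ states, 2 of the 10 genes rose, Lyz2 and Itgam, and 0 fell, beside 0.905% of all genes that changed. Adgre1 was lower in the mean, at 1496 against 1562 CPM without IFNβ and 1735 against 1775 CPM with it. The summed level of the macrophage genes was thus higher with supernatant in both IFNβ states, as 6 of the 7 members were. Its part in their values was not tested.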

How the data were processed

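RNA of 12 libraries from M2-like BMDM (4 conditions, 3 libraries each) was measured with the TruSeq Stranded Total RNA kit. The authors deposited expected counts per Ensembl gene, which RSEM (v1.3.3 per the submitters' processing notes) estimates by dividing reads that match several genes, and 12% of the values were not whole (within a tolerance of 1e-06, here and wherever values are called whole). The notes join the names of the builds GRCm39 and mm10, and positions here are those of GRCm39 in GENCODE M39. The strand setting of the counting is not given in the sources used here, so that genes overlapping on opposite strands may share reads.

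Values were rounded to whole counts and tested in R 4.3.3 with edgeR 4.0.16. Of 56748 genes, 15033 passed filterByExpr. Factors were computed by TMM, all 12 libraries entered 1 quasi-likelihood model, and p-values were adjusted by Benjamini-Hochberg over the genes tested, with genes called at 0.05. A prior count of 2 was used for the log2 CPM, from which correlations and the overlap of ranges were taken. The smallest p that exact permutation allows for 3 libraries against 3 is 0.1, and it was not used. Replicates differed beyond counting error (chi-square divided by its degrees of freedom, 5.72 to 59.2 over 12 pairs). The procedure was tested on simulated counts. Alternatives were DESeq2 1.42.0, RLE factors, library totals, no filter on low counts, the replicate number as a block, only the compared conditions, Ctla2a and Ctla2b summed, and each library left out in turn. Sums over other overlapping genes were added after the data were seen.

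The 7 genes, the lists and the motifs were chosen with earlier results of these data known. Further genes were named by rule: in each list those with the smallest adjusted p for IFNβ and for supernatant (2 each), the 2 genes most correlated with each member, and the nearest genes on either side. Other list members are named after their values were seen, and some genes that the rule takes in are not reported here.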

Additional observations from a re-analysis of the deposited data

How the results depend on the processing

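The counts of the 7 genes called for each IFNβ comparison and for the interaction, the count of list genes called with IFNβ, and the median supernatant difference kept their direction and their side of the threshold, or stayed within 1.5 times the count, under the alternatives run for each. The fit of only the compared conditions was run for the 2 single IFNβ comparisons, and DESeq2's count for the interaction covers 4 of the 7 genes. The count of list genes changed by supernatant, 6, did not. It was 3 with library totals, 10 with the replicate block, 10 with DESeq2, and 1 to 8 with each library left out in turn (8 without Ifnb1eGFP supernatant replicate 2). The cause was not tested.

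Ctla2a in rIFNβ against control passed with the replicate block (-0.53, adjusted p = 0.00559) and without rIFNβ replicate 3 (-0.85, adjusted p = 0.0423). With each library left out this difference ran from -0.85 to -0.27, and 6 to 7 members were called. With the counts of Ctla2a and Gm49391 summed, the differences with IFNβ were 2.70 averaged, 1.87 with supernatant and 3.52 without it, and with Ctla2a, Ctla2b, Gm49391, Gm49392 and Gm49393 summed 1.86, 1.38 and 2.33. The supernatant difference of Ggta1 without IFNβ was 0.28 without eGFP supernatant replicate 1, and that of Dmpk with IFNβ -1.3 without Ifnb1eGFP supernatant replicate 2. No other value of a single member changed its direction, or its side of the threshold where it was tested, under the alternatives run for it, and DESeq2 gave no adjusted p for the interaction of Ctla2a, Apoc2 and Gm56663.

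The deviations from the group means of same-numbered libraries had a mean correlation of 0.148 over 18 pairs (0.0582 to 0.252), beside -0.0742 over 36 pairs of different numbers. The labels do not say whether libraries of the same number in different groups came from the same mouse, batch or day. As not every pair was above 0.1, it was not taken as a pairing, and apart from the values above the block changed no call on the members. Low counts of Ctla2a, Apoc2 and Gm56663 and 3 libraries per group limit the precision of single comparisons.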
